A study of Mus musculus with 7 samples.

Results

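The assembly factors of the respiratory chain described here are 40 nuclear genes, picked by name out of the 55487 gene identifiers of the deposited count table. They help to build complexes I, III, IV and V of the mitochondrial inner membrane and, apart from a few, are not part of the finished complexes. The list holds 14 genes for complex I, 6 for complex III, 17 for complex IV and 3 for complex V (ATP synthase). Uqcc2, a complex III factor, had been seen to lie lower in every Traf6 KO library of these same data. It was chosen for its genotype difference, which is therefore given as a description with no test. The other 39 names were given with it. Among them is Ecsit, a complex I factor that is also known as a partner of TRAF6.

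Bulk RNA was sequenced from isolated pancreatic islets in 3 Traf6 KO and 4 control libraries. Traf6 codes for a ubiquitin ligase that relays signals of Toll-like and interleukin-1 receptors. The series describes the knockout as specific to beta cells, so other islet cells are meant to keep the gene, and the alleles that control mice carry are not given. All mice, control mice included, had eaten a diet with 60% fat for 15 weeks, and all islets rested in medium for 24 h before RNA was taken. Strain, age, sex, the Cre driver and the number of mice behind a library are not given in the labels.

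Each respiratory complex is put together stepwise from many subunits, and dedicated assembly factors hold the intermediates, insert heme, copper and iron-sulfur clusters, and leave before the complex is complete. Loss of single factors causes human mitochondrial disease. Beta cells depend on respiration, because ATP made in mitochondria closes the potassium channels that set off insulin release. The roles given below were worked out mostly in human cells and yeast.

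Totals ran from 22104256 to 29917292 counts per library. Traf6 itself stood at 14.7, 15.3 and 14.5 CPM in Traf6 KO 1 to 3, against 17.9, 25.5, 22.1 and 12.6 CPM in the libraries labelled control 1 to 4. CPM here is the depth-normalised count, computed on TMM-scaled library sizes. The log2 fold change was -0.40 ± 0.22 (SE given, adjusted p = 0.416 by edgeR). The lowest of the 7 values belonged to the library labelled control 4, which goes against its label, although a whole-gene count does not show a deleted exon. Acinar marker genes took 59.5%, 45.3% and 1.74% of all counts in Traf6 KO 1 to 3, against 21.4%, 0.522%, 0.496% and 3.44% in the libraries labelled control 1 to 4. Traf6 KO 3 had 421 CPM of Xist and 0 counts of the Y-linked genes Ddx3y, Uty, Kdm5d and Eif2s3y, the pattern of a female, while the other 6 libraries had at most 0.388 CPM of Xist. The sample names carry the letter S for Traf6 KO 3 and the library labelled control 4, and Q or R for the other 5. The 14 beta-cell markers were all detected in every library, and their summed level was 91212 to 116844 CPM in Traf6 KO, against 157370 to 191333 CPM in control, with no overlap. Summed macrophage markers (10 genes) reached 501 CPM in the library labelled control 4, and summed lymphocyte markers (10 genes) 448 CPM in Traf6 KO 3, above the other libraries. What part these cell types have in the results was not tested. Islets hold several cell types, and fewer cells of a type cannot be told apart from less RNA per cell.

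All 40 genes had enough counts to be tested, with 10 to 2916 counts per library. The most abundant per length were Coa3, Uqcc2, Cox14 and Uqcc3. Levels of different genes are compared as CPM per kilobase of exon (all annotated exons of a gene merged). Coa3, which holds newly made COX1 for complex IV, averaged 75.0 ± 12.8 CPM per kb in Traf6 KO and 91.2 ± 5.63 CPM per kb in control (SD, n = 3 and 4). Uqcc2 averaged 48.4 ± 4.92 CPM per kb in Traf6 KO and 73.7 ± 1.44 CPM per kb in control. Cox14, the partner of Coa3, averaged 41.8 ± 3.15 CPM per kb in Traf6 KO and 53.2 ± 2.90 CPM per kb in control. In control the libraries of Uqcc2 and Cox14 did not overlap, while in Traf6 KO the lowest Uqcc2 value (43.8 CPM per kb) was below the highest of Cox14 (45.3 CPM per kb).

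At the low end stood Cox17, Sco2, Lyrm7 and Nubpl. Cox17, the copper chaperone that feeds complex IV assembly, averaged 0.410 ± 0.127 CPM per kb in Traf6 KO and 0.479 ± 0.179 CPM per kb in control. Sco2, which receives that copper, averaged 0.648 ± 0.288 CPM per kb in Traf6 KO and 0.519 ± 0.164 CPM per kb in control, and the libraries of these 2 genes overlapped in both genotypes. Nubpl stood above Lyrm7 in all 7 libraries. The median over the 40 genes was 4.89 CPM per kb, against 3.48 CPM per kb over 14008 protein-coding genes tested. The subunits themselves were more abundant, with medians of 25.0 CPM per kb for 36 nuclear complex I subunits, 40.6 for 9 of complex III, 47.8 for 11 of complex IV and 27.8 for 16 of complex V. With the longest transcript as the length, the 6 most abundant genes kept their places, and Cox15 moved from rank 18 to rank 27 and Cox18 from rank 31 to rank 22. Cox17 has 5773 bp of merged exon and 3690 bp in its longest transcript. With the latter it ranked 39 and Sco2 ranked 40, so the last place depends on the length used. The exons of Cox17 also share 257 bp with Gm21987 on the same strand, which had 0 CPM in all 7 libraries. How shared reads were assigned is not given, so the level of Cox17 is uncertain.

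**Figure D1:**
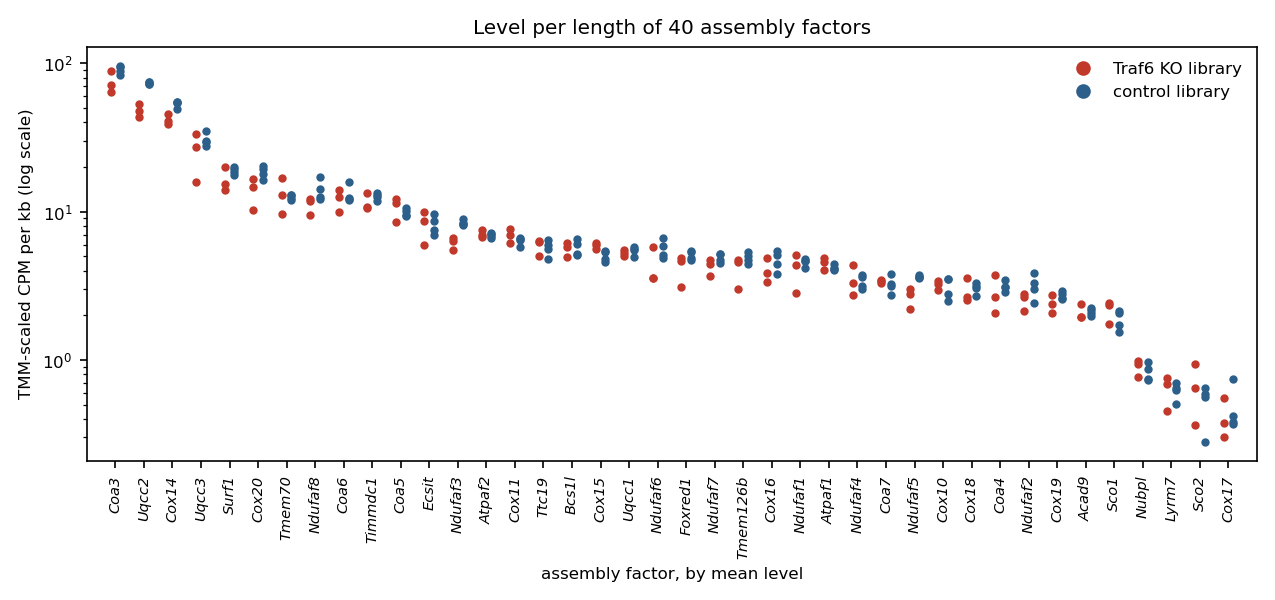
Level of each assembly factor in CPM per kilobase of exon (log axis), 1 point per library, Traf6 KO at the left and control at the right of each position, ordered by mean level. Coa3, Uqcc2, Cox14 and Uqcc3 lead, and Cox17, Sco2, Lyrm7 and Nubpl close the order.

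None of the 40 genes passed the test between genotypes, and 26 of the 40 had lower values in Traf6 KO. With edgeR's quasi-likelihood test and Benjamini-Hochberg adjustment over 16203 genes, 0 genes had an adjusted p under 0.05 in either direction (0.0% higher and 0.0% lower). Uqcc2, chosen on this contrast, is left out of the counts of calls that follow. Of the other 39, at an unadjusted p under 0.05, 4 were lower (Ndufaf3, Cox14, Ndufaf5 and Cox20) and 0 were higher, against 7.17% lower and 8.81% higher over all genes tested. Plain limma-voom called 0 genes too. By the DESeq2 Wald test, Ndufaf3 was lower and none of the 39 higher (1.57% of all genes lower and 3.02% higher). Quality weights in limma-voom gave Cox20 as lower and none as higher (2.33% and 4.13% of all genes). Without Traf6 KO 3 edgeR called 0 of the 39 (0.804% of all genes lower, 3.43% higher). None of them was called without the acinar-rich libraries Traf6 KO 1, Traf6 KO 2 and control 1 (0.0336% lower, 0.342% higher), with an acinar covariate (0.0% and 0.0185%) or with the replicate number as a block (0.0% and 0.037%). The share of genes with a log2 fold change below 0 was 65.0% for the assembly factors and 49.3% over all genes. Without Uqcc2, chosen for being lower, 25 of the other 39 lay below 0. Their median log2 fold change was -0.12, or -0.11 without Uqcc2, against 0.01 over all genes.

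For 5 genes (Uqcc2, Ndufaf3, Ndufaf5, Ndufaf8 and Cox14) all Traf6 KO values were under all control values, and for Cox15 they were above. Over all genes tested the shares were 8.68% below and 5.58% above. Without Uqcc2, picked on this contrast, the count below is 4 of 39. All 5 genes below had less than 2 kb of exon, and shares by length are given further on. With respiratory subunit counts as the library size the median of all genes stood at 0.12, and that of the 40 at -0.04, a difference of -0.16 between the medians, against -0.13 with TMM. Under that scaling 52.5% of the assembly factors, Uqcc2 included, and 35.9% of all genes lay below 0.

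Promoters of the 6 genes whose groups did not overlap are shown to let their start regions be compared. RefSeq's promoter table for GRCm38.p6 (300 bases, from 250 before to 50 after a gene's start) held 34 of the 40 genes, 36 promoters in all. The sequences run 5′ to 3′ on the gene's strand: Uqcc2 at chr17:27133842-27134141 (minus), Ndufaf3 at chr9:108567387-108567686 (minus), Ndufaf5 at chr2:140170396-140170695 (plus), Ndufaf8 at chr11:120098684-120098983 (plus), Cox14 at chr15:99725368-99725667 (plus) and Cox15 at chr19:43752951-43753250 (minus). Capitals mark matches, on either strand, to the motifs named after them.
Uqcc2: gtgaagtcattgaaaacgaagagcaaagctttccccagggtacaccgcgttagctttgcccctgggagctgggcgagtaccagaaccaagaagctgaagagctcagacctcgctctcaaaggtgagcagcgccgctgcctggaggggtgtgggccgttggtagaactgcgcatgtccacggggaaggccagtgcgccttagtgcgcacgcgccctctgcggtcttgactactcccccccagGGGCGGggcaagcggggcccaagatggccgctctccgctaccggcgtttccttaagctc
Ndufaf3: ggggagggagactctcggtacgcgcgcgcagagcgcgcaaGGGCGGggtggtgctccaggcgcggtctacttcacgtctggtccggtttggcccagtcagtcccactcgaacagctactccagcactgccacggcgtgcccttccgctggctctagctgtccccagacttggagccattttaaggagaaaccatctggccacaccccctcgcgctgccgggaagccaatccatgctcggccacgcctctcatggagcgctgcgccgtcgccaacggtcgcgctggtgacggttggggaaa
Ndufaf5: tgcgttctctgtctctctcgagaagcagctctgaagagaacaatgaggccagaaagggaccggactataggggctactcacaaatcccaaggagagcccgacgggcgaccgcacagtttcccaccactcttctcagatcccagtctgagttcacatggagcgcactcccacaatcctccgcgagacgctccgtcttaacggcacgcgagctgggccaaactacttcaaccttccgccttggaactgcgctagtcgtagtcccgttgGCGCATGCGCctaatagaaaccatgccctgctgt
Ndufaf8: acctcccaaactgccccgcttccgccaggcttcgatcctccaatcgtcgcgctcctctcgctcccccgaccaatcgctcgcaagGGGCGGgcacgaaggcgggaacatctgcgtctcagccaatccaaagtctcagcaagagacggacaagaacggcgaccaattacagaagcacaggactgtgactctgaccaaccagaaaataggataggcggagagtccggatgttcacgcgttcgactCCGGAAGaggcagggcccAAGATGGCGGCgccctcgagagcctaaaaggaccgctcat
Cox14: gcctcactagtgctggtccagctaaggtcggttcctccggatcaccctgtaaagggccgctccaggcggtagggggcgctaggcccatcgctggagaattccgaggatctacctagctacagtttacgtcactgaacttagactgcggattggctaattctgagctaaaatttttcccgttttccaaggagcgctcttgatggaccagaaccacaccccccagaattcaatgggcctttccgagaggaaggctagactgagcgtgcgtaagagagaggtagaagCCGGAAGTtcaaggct
Cox15: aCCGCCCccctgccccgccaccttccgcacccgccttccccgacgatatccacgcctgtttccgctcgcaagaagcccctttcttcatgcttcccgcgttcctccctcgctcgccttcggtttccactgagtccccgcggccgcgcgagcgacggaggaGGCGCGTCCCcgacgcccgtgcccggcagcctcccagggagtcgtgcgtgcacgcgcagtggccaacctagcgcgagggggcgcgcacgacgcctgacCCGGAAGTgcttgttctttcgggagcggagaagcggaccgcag

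The motifs searched were CCGGAAG (the ETS core bound by GABP, with a following T also in capitals), TCAAGGTCA (ERRalpha), GGGCGG (SP1), the NRF1 and YY1 motifs with the letters seen in Ndufaf5 and Ndufaf8, and for NF-kB GGGA and CC with any 4 bases between, on both strands, with matches of different motifs free to overlap. The ETS core stood in promoters of 13 of the 34 genes (38.2%), against 9.9% of all genes in the table and 18.3% of 11774 genes tested. SP1 stood in 27 (79.4%, against 38.2% and 66.2%), YY1 in 4 (11.8%, against 0.8% and 1.6%), NRF1 in 2 (5.9%, against 1.1% and 2.09%), and NF-kB in 5 (14.7%, against 22.9% and 30.1%). The ERRalpha motif was in none of the 34, against 0.5% of all genes. Among the 6 shown, Uqcc2 and Ndufaf3 held 1 SP1 match each, Ndufaf5 an NRF1 match, Ndufaf8 an ETS, a YY1 and an SP1 match, Cox14 an ETS match, and Cox15 an ETS, an SP1 and an NF-kB match. These 6 genes were grouped by their values, with Uqcc2 chosen beforehand, and any part of a motif in those values was not tested. Median GC content was 61.7% in these promoters, 60.3% in those of genes tested and 52.7% in all. A match describes the letters of the window and not binding.

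Of the 6 complex III factors, 4 had a log2 fold change under 0 and 2 above (median -0.04), and 0 passed. UQCC1 and UQCC2 bind each other and take up newly made cytochrome b, the mitochondrially encoded core of complex III. Uqcc2 (ENSMUSG00000024208, chromosome 17, 27122663 to 27133916 on GRCm38, minus strand) had 44.9, 36.7 and 39.999 CPM in Traf6 KO 1 to 3, against 62.9, 60.4, 60.9 and 62.5 CPM in the libraries labelled control 1 to 4. The 3 Traf6 KO values lay well below the 4 controls, which spanned a narrow range. The mean was 40.5 ± 4.12 CPM in Traf6 KO and 61.7 ± 1.21 CPM in control (SD, n = 3 and 4), and the log2 fold change was -0.61 ± 0.096 (SE). Within the Q- and R-tagged libraries the difference of log2(CPM + 1) was -0.59, while the S-tagged pair differed by -0.63. The sign in each series was fixed by the choice of Uqcc2, so the split adds no separate evidence. The S-tagged pair is 1 library of each genotype.

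Uqcc1 (chromosome 2, 155846894 to 155930310) did not follow Uqcc2. It had 30.4, 33.2 and 31.8 CPM in Traf6 KO 1 to 3, against 34.9, 33.4, 33.6 and 29.8 CPM in the libraries labelled control 1 to 4. The groups overlapped, with a log2 fold change of -0.05 ± 0.094 (SE). The ratio of Uqcc2 to Uqcc1 per length, which does not depend on scaling between libraries, was 10.7, 7.98 and 9.09 in Traf6 KO 1 to 3, against 13.0, 13.1, 13.1 and 15.2 in the libraries labelled control 1 to 4. All 3 Traf6 KO ratios lay below all 4 control ratios, a description that shares the choice of Uqcc2.

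UQCC3 acts on cytochrome b after UQCC1 and UQCC2. Uqcc3 had 27.3, 22.2 and 13.1 CPM in Traf6 KO 1 to 3, against 24.8, 22.8, 28.6 and 24.1 CPM in the libraries labelled control 1 to 4. Only Traf6 KO 3 stood far below the controls, and the log2 fold change was -0.27 ± 0.23 (SE). The last steps insert the Rieske iron-sulfur protein. Bcs1l, the translocase for it, had 13.5, 12.7 and 10.9 CPM in Traf6 KO, against 11.3, 14.4, 13.3 and 11.3 CPM in control. Lyrm7, its chaperone, had 3.799, 3.501 and 2.30 CPM in Traf6 KO, against 2.56, 3.29, 3.54 and 3.18 CPM in control. Ttc19, which helps to clear Rieske fragments, had 23.4, 29.2 and 29.4 CPM in Traf6 KO, against 28.0, 29.9, 26.2 and 22.5 CPM in control. The groups overlapped for each of these 3 genes, and their log2 fold changes were -0.03, 0.02 and 0.04.

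Of the 9 nuclear complex III subunits, 5 were above 0 and 4 below, with a median log2 fold change of 0.04, and 0 passed. Uqcr10, a small subunit, had 38.0, 26.6 and 22.9 CPM in Traf6 KO, against 41.0, 35.8, 38.7 and 38.7 CPM in control. Uqcrb, which contacts cytochrome b, stood at a log2 fold change of -0.21 ± 0.097 and Cyc1, cytochrome c1, at 0.23 ± 0.17 (SE given, adjusted p = 0.326 and 0.533 by edgeR).

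**Figure D2:**
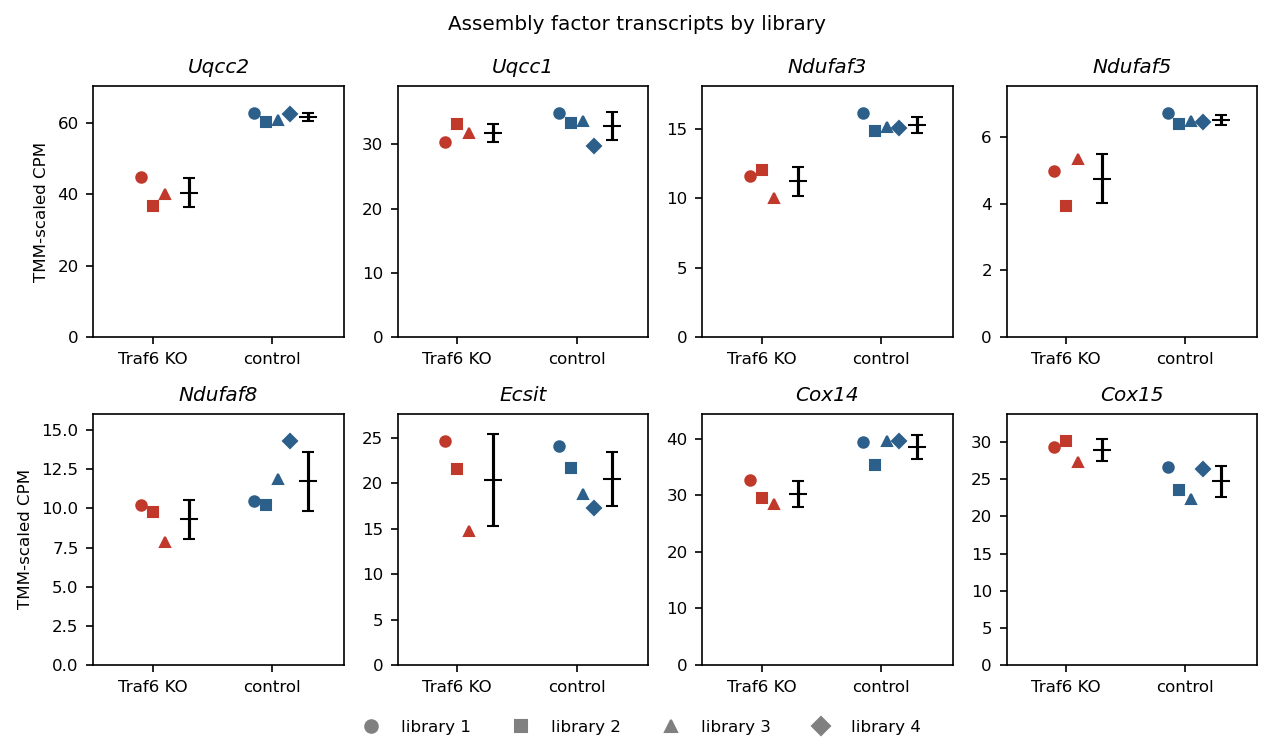
TMM-scaled CPM of 8 assembly factors in each library, Traf6 KO left and control right, with the mean and SD beside the points and 1 marker shape per library number. Uqcc2, Ndufaf3, Ndufaf5, Ndufaf8 and Cox14 lie lower in all 3 Traf6 KO libraries, Cox15 lies higher, and Uqcc1 and Ecsit overlap.

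Of the 14 complex I factors, 12 had a log2 fold change below 0 (median -0.22), and 0 passed. NDUFAF3 and NDUFAF4 bind each other and act early, on the arm that passes electrons to ubiquinone. Ndufaf3 (chromosome 9, 108565537 to 108567434) had 11.6, 12.1 and 10.0 CPM in Traf6 KO 1 to 3, against 16.1, 14.8, 15.1 and 15.0 CPM in the libraries labelled control 1 to 4. The groups did not overlap, and the log2 fold change was -0.45 ± 0.11 (SE given, adjusted p = 0.201 by edgeR). Ndufaf4 had 17.1, 12.9 and 10.6 CPM in Traf6 KO, against 14.1, 14.5, 12.4 and 11.8 CPM in control, with the highest and the lowest of the 7 values both in Traf6 KO.

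NDUFAF5 hydroxylates a subunit of that same arm and NDUFAF8 is its partner. Ndufaf5 (chromosome 2, 140170649 to 140203689) had 4.98, 3.93 and 5.34 CPM in Traf6 KO 1 to 3, against 6.72, 6.38, 6.50 and 6.46 CPM in the libraries labelled control 1 to 4. Ndufaf8 (chromosome 11, 120098928 to 120100705) had 10.2, 9.80 and 7.87 CPM in Traf6 KO, against 10.5, 10.2, 11.9 and 14.3 CPM in control. Neither gene overlapped between groups, but for Ndufaf8 the highest Traf6 KO value and the lowest control value nearly met. The log2 fold changes were -0.45 ± 0.17 and -0.34 ± 0.17 (SE given, adjusted p = 0.268 and 0.368 by edgeR).

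Ndufaf2, a late-acting factor, had 8.23, 7.92 and 6.38 CPM in Traf6 KO, against 9.91, 11.6, 8.90 and 7.20 CPM in control. Ndufaf6, needed for an early membrane subunit, had 4.43, 4.42 and 7.13 CPM in Traf6 KO, against 6.02, 7.25, 6.26 and 8.19 CPM in control. Foxred1, a flavin-binding protein of later steps, had 14.1, 20.9 and 22.1 CPM in Traf6 KO, against 21.5, 24.7, 24.3 and 21.99 CPM in control. Each of these overlapped between groups, at log2 fold changes of -0.33, -0.37 and -0.27 (edgeR adjusted p from 0.436 to 0.458). Ndufaf2 was the complex I factor with the widest spread among controls, and the library labelled control 4 was the lowest of them. Nubpl, which supplies iron-sulfur clusters, had 4.89, 4.63 and 3.82 CPM in Traf6 KO, against 4.76, 4.32, 3.63 and 3.67 CPM in control, and Ndufaf7, a methyltransferase, stood at -0.19 ± 0.12 on the log2 scale (SE).

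Ecsit (ENSMUSG00000066839, chromosome 9, 22072246 to 22085438) overlapped between genotypes. ECSIT works with NDUFAF1, ACAD9, TMEM126B and TIMMDC1 in the complex that assembles the membrane arm of complex I. Ecsit had 24.7, 21.6 and 14.8 CPM in Traf6 KO 1 to 3, against 24.1, 21.7, 18.8 and 17.3 CPM in the libraries labelled control 1 to 4. Both groups spanned a wide range around the same mean of 20.4 ± 5.06 CPM in Traf6 KO and 20.5 ± 3.00 CPM in control (SD, n = 3 and 4), and the log2 fold change was -0.01 ± 0.19 (SE given, adjusted p = 0.981 by edgeR). Its sign changed in 10 of 21 alternative settings, among them DESeq2 size factors and respiratory subunit counts as the library size. The value was -0.39 without the acinar-rich libraries and -0.31 with an acinar covariate, and it ran from -0.16 to 0.17 with 1 library left out. In each group the S-tagged library was the lowest and library 1 the highest. Of the exon length of Ecsit, 24.0% lies over Gm16845 on the other strand. Gm16845 had 3.35, 3.34 and 4.57 CPM in Traf6 KO, against 5.81, 5.10, 5.27 and 6.81 CPM in control. No strand setting is given for the counts, so reads of that stretch cannot be told apart.

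The 4 partners did not pass either. Ndufaf1 had 6.60, 7.70 and 4.24 CPM in Traf6 KO, against 6.30, 6.97, 7.20 and 7.02 CPM in control. Acad9, which also resembles an enzyme of fatty acid oxidation, had 15.9, 19.4 and 15.9 CPM in Traf6 KO, against 16.2, 17.7, 18.3 and 16.9 CPM in control. Traf6 KO 3 was the lowest library for both, level with Traf6 KO 1 in the case of Acad9. Tmem126b had 21.7, 22.5 and 14.2 CPM in Traf6 KO, against 25.3, 22.3, 23.6 and 21.1 CPM in control. Timmdc1 had 23.8, 19.2 and 19.0 CPM in Traf6 KO, against 23.2, 23.7, 22.5 and 21.004 CPM in control. Their log2 fold changes ran from -0.25 (Tmem126b) to -0.02 (Acad9), with edgeR adjusted p from 0.492 to 0.955. The ratio of Ecsit to Ndufaf1 per length was 2.25, 1.69 and 2.10 in Traf6 KO, against 2.30, 1.88, 1.57 and 1.49 in control, and overlapped.

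Of 36 nuclear complex I subunits, 30 were below 0 with a median of -0.19, and 0 passed. Below 0 lay 49.3% of all genes, 66.8% of protein-coding genes under 1 kb and 65.3% of those of 1 to 2 kb. Ndufs5, Ndufb3 and Ndufc1, all small subunits, had log2 fold changes of -0.37 ± 0.11, -0.39 ± 0.12 and -0.53 ± 0.16 (SE given, adjusted p = 0.219 for each by edgeR), with no overlap between groups. Of the 36, 5 lay below every control and 0 above, against 8.68% and 5.58% of all genes.

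The 17 complex IV factors split, 10 below and 7 above 0 (median -0.11), and 0 passed. COX14 and COA3 hold new COX1 until it can be built in. Cox14 (chromosome 15, 99725618 to 99728136) had 32.7, 29.5 and 28.4 CPM in Traf6 KO 1 to 3, against 39.4, 35.3, 39.6 and 39.6 CPM in the libraries labelled control 1 to 4. The groups did not overlap (log2 fold change -0.35 ± 0.096 with its SE, adjusted p = 0.203 by edgeR). Coa3 had 78.9, 63.5 and 56.8 CPM in Traf6 KO, against 84.2, 79.1, 85.3 and 74.5 CPM in control. Traf6 KO 1 lay within the controls and the other two below them (-0.28 ± 0.13 with its SE, adjusted p = 0.330 by edgeR).

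Heme A, the cofactor of COX1, is made in turn by COX10 and COX15. Cox15 (chromosome 19, 43733254 to 43753000) had 29.4, 30.2 and 27.3 CPM in Traf6 KO 1 to 3, against 26.6, 23.5, 22.4 and 26.4 CPM in the libraries labelled control 1 to 4. It was the 1 assembly factor above every control in every Traf6 KO library, with a log2 fold change of 0.23 ± 0.10 (SE given, adjusted p = 0.325 by edgeR). With respiratory subunit counts as the library size its groups overlapped. An exon of Cox15 shares 444 bp with Entpd7 on the other strand, and Entpd7 had 24.2, 25.7 and 20.5 CPM in Traf6 KO, against 17.9, 16.97, 13.0 and 15.8 CPM in control. No strand setting is given for the counts, so reads of that stretch cannot be told apart. Cox10 overlapped between groups at 0.05 ± 0.16, and Surf1, which helps to insert heme A, at -0.20 ± 0.13 (SE).

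COX20 is a chaperone of COX2. Cox20 had 14.7, 8.99 and 12.9 CPM in Traf6 KO, against 15.8, 17.8, 17.0002 and 14.4 CPM in control, at a log2 fold change of -0.41 ± 0.18 (SE given, adjusted p = 0.312 by edgeR). Traf6 KO 1 lay above the library labelled control 4, so the groups met. Of its exon length 91.1% lies over Hnrnpu on the other strand, at 324 to 386 CPM, so its level is uncertain. Cox16 and Cox18, also of COX2 maturation, stood at -0.22 ± 0.18 and -0.06 ± 0.17 (SE).

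Copper reaches complex IV through COX17, SCO1, SCO2, COX11 and small proteins of the space between the membranes. Cox17 had 2.17, 3.18 and 1.75 CPM in Traf6 KO, against 2.42, 2.15, 2.19 and 4.31 CPM in control, and the library labelled control 4 stood apart from the other controls. Sco1, Sco2 and Cox11 had log2 fold changes of 0.21 ± 0.19, 0.27 ± 0.46 and 0.13 ± 0.13 (SE). Coa4, Coa6 and Cox19 were at -0.16, -0.11 and -0.19, and Coa5 and Coa7 at 0.13 and 0.06. All 8 overlapped between groups (edgeR adjusted p from 0.539 to 0.852). The exons of Sco2 share 68.3% with Tymp and 66.2% with Ncaph2, those of Cox11 48.3% with Tom1l1, those of Cox16 56.8% with Gm20498 and those of Ndufaf2 65.6% with B230220B15Rik. These levels, and that of Cox17 (4.5% shared with Gm21987), rest on how the reads were divided. Of 11 nuclear complex IV subunits, 9 were below 0 (median -0.20), among them Cox6c at -0.23 ± 0.095, Cox8a at -0.26 ± 0.12 and Cox5b at -0.21 ± 0.14 (SE), and 0 passed.

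The 3 complex V factors were near 0. ATPAF1 and ATPAF2 hold the beta and alpha subunits of the catalytic head, and TMEM70 helps to form the ring in the membrane. Atpaf1 had 16.6, 17.5 and 14.5 CPM in Traf6 KO, against 14.9, 15.1, 15.9 and 14.6 CPM in control. Atpaf2 had 16.1, 14.8 and 14.4 CPM in Traf6 KO, against 14.2, 14.7, 15.4 and 15.2 CPM in control. Tmem70 had 30.8, 23.6 and 17.5 CPM in Traf6 KO, against 23.7, 21.7, 23.7 and 22.6 CPM in control. All 3 overlapped, at log2 fold changes of 0.09 ± 0.11, 0.02 ± 0.099 and 0.06 ± 0.18 (SE given, edgeR adjusted p from 0.694 to 0.942). Of 16 nuclear complex V subunits 10 were below 0 (median -0.06) and 0 passed. Atpif1, the inhibitor of ATP synthase, was at -0.48 ± 0.13 with no overlap, Atp5e at -0.40 ± 0.18 and Atp5k at -0.38 ± 0.19 (SE given, adjusted p = 0.201, 0.330 and 0.368 by edgeR). Atpif1 was the 1 of these 16 below every control, where 8.68% of all genes were.

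**Figure D3:**
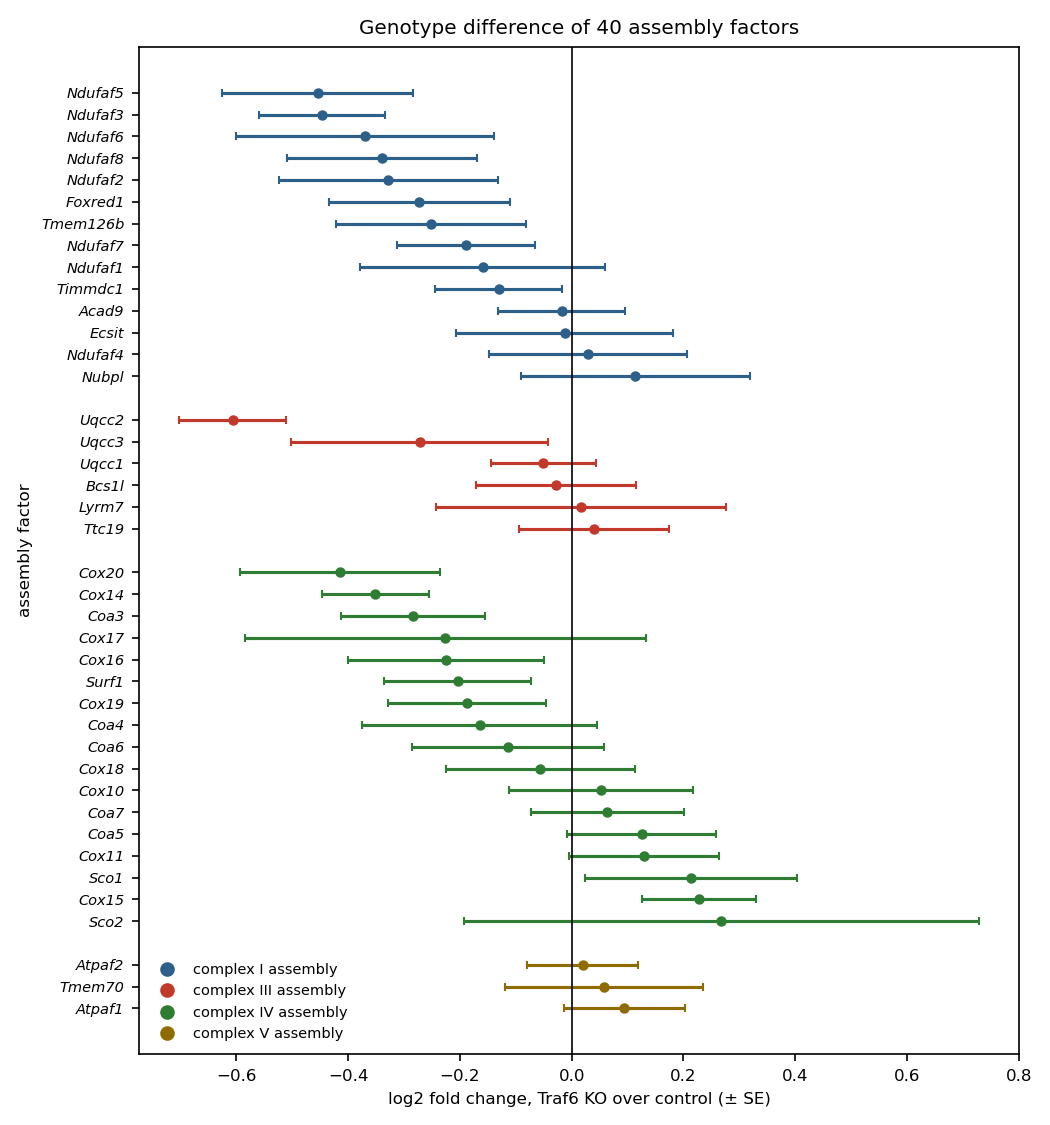
Log2 fold change of each of the 40 assembly factors, Traf6 KO over control, with its SE, grouped by complex. Complex I factors lie mostly below 0, the complex V factors near 0, and Uqcc2 is the lowest at -0.61.

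No related list outside the 40 held a gene that passed. Of 24 other assembly factors tested, 19 were below 0 (median -0.18) and 0 passed, led by Pet100, a complex IV factor, at -0.49 ± 0.17, Sdhaf2, of complex II, at -0.26 ± 0.099, and Smim20, of complex IV, at -0.34 ± 0.16 (SE given, adjusted p = 0.249, 0.268 and 0.334 by edgeR). Of 4 complex II subunits, 3 were below 0 (median -0.04), with Sdhd, Sdhc and Sdhb at -0.10, -0.06 and 0.09, and 0 passed. Mitochondrially encoded subunits had 8 of 13 above 0 (median 0.22) and 0 passed, with mt-Nd6 at -0.36 ± 0.14, mt-Nd4l at 1.35 ± 0.69 and mt-Co3 at -0.36 ± 0.22 (SE given, adjusted p = 0.288, 0.376 and 0.441 by edgeR). Of these, mt-Nd4l and mt-Co3 were low, at 1.10 and 4.26 CPM on average in Traf6 KO and 0.447 and 5.47 CPM in control.

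Among 14 regulators of respiratory genes, 10 were above 0 (median 0.08) and 0 passed. Gabpa and Gabpb2 code for a DNA-binding and a partner subunit of GABP, an ETS-family regulator of mitochondrial genes. Gabpa had 20.5, 32.7 and 24.0 CPM in Traf6 KO, against 18.3, 20.5, 21.3 and 18.3 CPM in control, and Gabpb2 had a log2 fold change of 0.41 ± 0.17 (SE). Yy1 followed at 0.19 ± 0.10 (SE given, adjusted p = 0.294, 0.304 and 0.405 in this order by edgeR). Among 14 genes of TRAF6 and ECSIT signalling 10 were above 0 (median 0.13) and 0 passed, with the adaptor genes Tab3 at 0.43 ± 0.18 and Tab2 at 0.20 ± 0.10 and the kinase gene Irak1 at 0.25 ± 0.14 (SE given, adjusted p = 0.295, 0.368 and 0.396 by edgeR).

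Traf6 KO 3 was the lowest of its group for 27 of the 40 assembly factors (67.5%), against 36.0% of all genes tested, and Traf6 KO 1 was the highest for 22 (55.0% against 37.6%). Traf6 KO 3 was the highest of its group for 8 of the 40, against 40.2% of all genes. Within its group, Traf6 KO 3 is the library with the small acinar share, the S tag and the female pattern. Among the controls, control 1, with the largest acinar share there, was the lowest for 10 and the highest for 11 genes (25.0% and 27.5%, against 28.5% and 28.0% of all genes). The library labelled control 4, also tagged S, was the lowest for 15 (37.5% against 28.2%). The mean of log2(CPM + 1) over the 40 genes was 3.89, 3.81 and 3.67 in Traf6 KO 1 to 3, against 3.91, 3.92, 3.92 and 3.88 in the libraries labelled control 1 to 4. The spread among controls was small, with a median SD of 0.109 on that scale, against 0.161 over all genes.

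Lower genes were also counted within each tag series. Within the Q- and R-tagged libraries 21 of the 40 genes were lower in Traf6 KO, near the share of all genes (53.8%). In the S-tagged pair, 1 library of each genotype, 29 were lower (52.0% of all genes). In both series 16 were lower (30.8% of all genes). These 3 counts include Uqcc2, whose sign in each series was fixed by its choice. Without Traf6 KO 3 the median log2 fold change of the 40 genes was -0.02, and without the acinar-rich Traf6 KO 1, Traf6 KO 2 and control 1 it was -0.28. The difference between the series was not tested, since the S series holds 1 library of each genotype. Acinar share, sex and tag series move together with Traf6 KO 3, and their part in these values was not tested.

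The genes also differed by length. All 7 assembly factors with under 1 kb of exon (Uqcc2, Uqcc3, Coa3, Coa6, Cox14, Cox20 and Ndufaf8) lay lower in Traf6 KO on average, at a median log2 fold change of -0.34, and 66.8% of all protein-coding genes of that length did. Without Uqcc2, chosen for being lower, the median of the other 6 was -0.31. The 9 genes of 1 to 2 kb had a median of -0.16, the 14 of 2 to 4 kb one of -0.02, and the 10 above 4 kb one of -0.0005. Over all protein-coding genes tested the medians ran the same way, at -0.20 for 322 genes under 1 kb, -0.15 for 1484 of 1 to 2 kb, -0.05 for 4261 of 2 to 4 kb and 0.08 for 7941 above 4 kb. The share of protein-coding genes in which no Traf6 KO value reached the controls was 14.6% under 1 kb, 16.0% at 1 to 2 kb, 11.0% at 2 to 4 kb and 4.81% above 4 kb. For the assembly factors the counts were 3 of 7, 2 of 9, 0 of 14 and 0 of 10, with Uqcc2 among the first. Within Traf6 KO, library 3 differed from the mean of libraries 1 and 2 on the log2 scale by a median of -0.31, -0.22, -0.23 and -0.13 for the assembly factors of these 4 classes, from short to long. Over all protein-coding genes the same medians were -0.21, -0.15, -0.03 and 0.11, so the assembly factors were lower in library 3 in every class. Uqcc2, with 837 bp of exon, stood at -0.61 against the class median of -0.20. Length was examined after the fold changes were known, and its part in them was not tested.

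**Figure D4:**
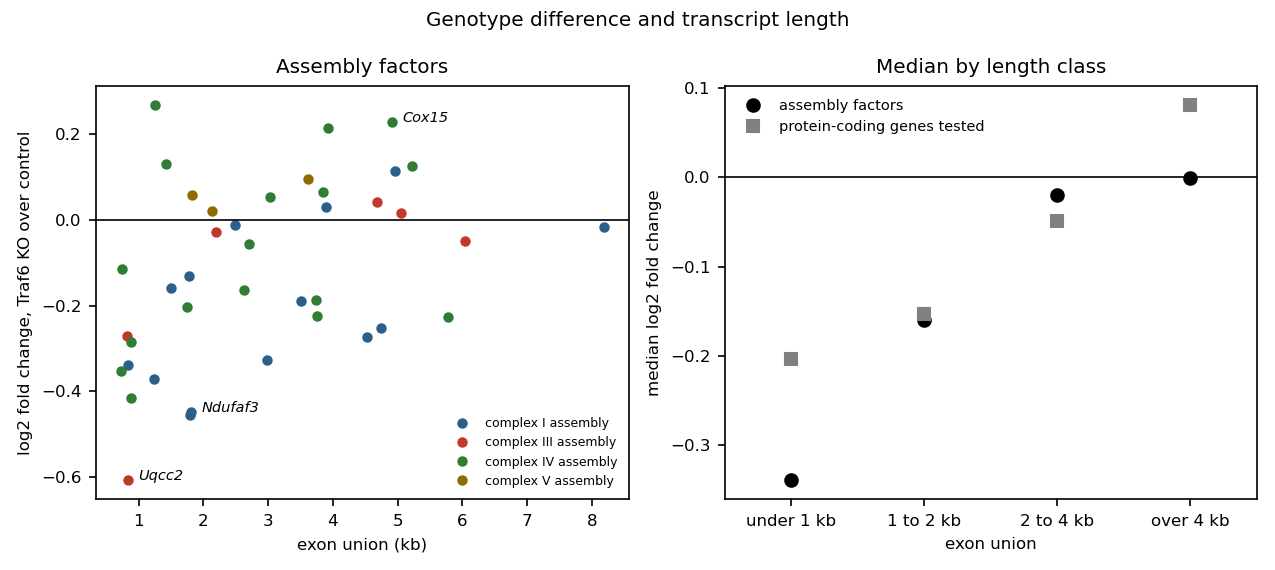
Left, log2 fold change (Traf6 KO over control) of each assembly factor against the length of its merged exons in kb. Right, median log2 fold change in 4 length classes for the assembly factors and for all protein-coding genes tested, from -0.34 and -0.20 under 1 kb to -0.0005 and 0.08 above 4 kb.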

How the data were processed

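The file deposited by the authors holds raw whole-number counts for each gene, with 1 column for each of 7 islet libraries (3 Traf6 KO, 4 control). Per the submitters' processing notes, the build was GRCm38 and the tools included RSEM 1.3.1, STAR 2.6.1b and FastQC, in roles left unsaid, so the counts may be rounded estimates. Libraries were paired reads of 151 bp, per the labels' protocols, where the kit listed for RNA is one for tissue DNA. Annotation and strand setting: not given in the sources used here. The genotype test ran over all genes with edgeR 4.0.16 under R 4.3.3 (quasi-likelihood F test, TMM, filterByExpr with a minimum count of 10 and total of 15, genotype as the only term, threshold an adjusted p of 0.05). DESeq2 1.42.0 and limma 3.58.1 (voom) were alternatives, beside other scalings, filters, covariates and subsets of libraries given in the closing section. SE is the fold change over the square root of F. Fits were run on simulated counts with planted changes larger than those of the assembly factors. The simulation held no acinar differences, so it does not show how the fits handle changes of the size seen here. Of 55487 identifiers, 55227 matched GENCODE M21, whose merged exons gave positions and lengths. Shared sequence was sought with blastn at 95% identity over 150 bp. All pairs of libraries differed by more than counting noise (lowest chi-square per gene 21.8 over 21 pairs).

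The genes and lists were chosen with earlier results of these data known. Named in full are Uqcc2, Ecsit, complex III and V factors, the Ecsit partners, the most and least abundant factor of each complex, the 8 further genes with the smallest p, and the 2 with the widest spread among controls. Of each other list, up to 3 genes with the smallest p are named. Genes outside this rule were named after their values were seen. p-values measure the spread between these libraries only.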

Additional observations from a re-analysis of the deposited data

Results flagged for a closer look

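Among the 4 control libraries, 3 assembly factors had 1 library far from the other controls, by Dixon's ratio of gap to range, out of 41 genes examined (the 40 and Traf6). About 1 in 20 groups is marked by chance. Coa6 stood at 11.8 CPM in control 1, against 8.92 to 9.28 CPM in the other controls. Cox14 stood at 35.3 CPM in control 2, against 39.4 to 39.6 CPM in the other controls, and stayed above every Traf6 KO library. Cox17 stood at 4.31 CPM in the library labelled control 4, against 2.15 to 2.42 CPM in the other controls.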

How the results depend on the processing

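The count of genes called between genotypes, 0 by edgeR, was 744 by the DESeq2 Wald test, 1046 with limma-voom quality weights, 3 with an acinar covariate, 67 without the acinar-rich libraries and 0 to 701 when 1 library was left out, the 701 without Traf6 KO 3. With the replicate number as a replicate block it was 6. Same-numbered libraries deviated together in pairs 1 and 3 but not in pair 2 (correlations 0.60, -0.18 and 0.45). Some differently numbered libraries did so too, at 0.53 for Traf6 KO 2 with control 1 and 0.48 for Traf6 KO 3 with control 2. Others ran down to -0.74 (Traf6 KO 3 with control 1), so the numbers were not taken as pairs. Assembly factors called lower, 0 in edgeR, were 2 by DESeq2, 2 with quality weights and 0 to 1 with 1 library left out, the 1 without Traf6 KO 3. These counts include Uqcc2, chosen on this contrast, and without it they were 1, 1 and 0. Factors above every control (1) were 0 with respiratory subunit counts as library size, 4 in the Q- and R-tagged libraries, 4 without the acinar-rich libraries and 1 to 3 with 1 library left out, where the shares of all genes were 6.72%, 19.5%, 31.96% and 6.61% to 16.5%. Factors below every control (5, Uqcc2 included here and in each setting) were 3 of 40 (7.5%), 13 (32.5%) and 26 (65.0%) under those settings, in that order, against 2.72%, 21.7% and 32.9% of all genes. With 1 library left out they were 4 to 12, with 12 without Traf6 KO 1, 9 without Traf6 KO 3 and 8 without the library labelled control 4, against 14.45%, 17.7% and 11.7% of all genes. The 26 rests on 1 Traf6 KO and 3 control libraries. Smaller groups overlap less often by construction.

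The median log2 fold change of the 40 genes (-0.12) was -0.0993 with DESeq2 size factors, -0.162 with upper-quartile factors, -0.0775 with totals without acinar genes, -0.0379 with subunit totals, -0.1661 with limma-voom, -0.0518 with quality weights, -0.1449 with no filter, -0.1857 with an acinar covariate, -0.026 in the Q- and R-tagged libraries, -0.2844 without the acinar-rich libraries and -0.1592 to -0.018 with 1 library left out (Traf6 KO 1 and Traf6 KO 3). The causes were not tested. Of the 40 genes, 20 kept their sign in all 21 alternatives (17 lower, and Coa5, Cox11 and Cox15 higher), and 20 turned in at least 1. The 17 include Uqcc2, chosen for being lower, which ran from -0.69 to -0.51. All settings reuse the same libraries. The share over all genes was not computed for this count, so it describes these genes only. Low counts, down to 10 in a library, limit Sco2 and Cox17.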
